A study of Mus musculus with 6 samples.

Results

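The genes described here encode 7 intermediate filament proteins of neurons and their progenitors, namely the neurofilament subunits Nefl, Nefm and Nefh, the related neuronal filament genes Ina and Prph, and the progenitor filament genes Nes and Vim. They were taken by gene name from the deposited gene tables, where each name belongs to 1 of the 46517 listed gene IDs, and all 7 passed the filter on low values that left 20232 genes for testing. The libraries were made from poly(A)-selected, rRNA-depleted RNA of E14TG2a, an embryonic stem cell line of the mouse, of wild-type genotype and with no treatment per the labels, at 3 stages with 2 libraries each. The stages were stem cells kept on gelatin in serum and the cytokine LIF (mESC), neuronal progenitors made from them by a published protocol (NPC), and a last stage named NC. The abbreviation NC is not explained in the labels, which give embryonic stem cells as the cell type of all 6 samples, so NC is taken here as the glutamatergic pyramidal neurons of the design text. All samples come from that single cell line, and the labels call the libraries of a stage biological replicates without saying whether they came from separate cultures, so p-values measure only the spread between these libraries. Values are TPM, a transcript abundance per length that has 1 fixed total per library, so that levels of different genes can be compared on this scale.

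Intermediate filaments are cytoskeletal polymers of long coiled proteins. In axons of mature neurons, NEFL forms the core of the neurofilament, NEFM and NEFH add long phosphorylated tails that set the spacing of filaments and axon calibre, and alpha-internexin (INA) is a further subunit of central neurons. Peripherin (PRPH) is best known from peripheral neurons and motor neurons, whereas nestin (NES) and vimentin (VIM) form the filaments of neural stem cells and radial glia, vimentin also being abundant in fibroblasts and other mesenchymal cells. During neuronal differentiation in the embryo, vimentin and nestin filaments are gradually replaced by alpha-internexin and the neurofilament subunits, with NEFH coming last.

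Depth lay between 1.57 and 2.27 Gb of aligned bases per library, as the ratio of coverage to FPKM gave it, and the tables hold no counts. Pou5f1, a pluripotency factor, stood at 1475 and 1891 TPM in mESC, at 0.766 and 1.08 TPM in NPC, and was listed at 0 in both NC libraries. Tubb3, the neuronal beta-tubulin, stood at 83.7 and 116 TPM in mESC, 351 and 541 TPM in NPC, and 2135 and 1911 TPM in NC. For NC the markers of pyramidal neurons went only in part with the design text. Slc17a6, a vesicular glutamate transporter, stood at 28.9 and 21.6 TPM in NC, while the cortical factors Tbr1, Emx1 and Fezf2 stayed at or below 0.502 TPM there. Neurod2 and Neurod6 were at 20.7 and 14.7 TPM in NC replicate 1 but at 0.219 and 0 TPM in NC replicate 2, so the NC libraries stood apart from each other in these genes. Summed over 9 neuron markers the level was 265 and 336 TPM in mESC, 808 and 1084 TPM in NPC, and 4474 and 3966 TPM in NC. All 9 rose in NC against mESC, as did 37.8% of all tested genes. Summed markers of oligodendrocytes and microglia reached at most 34.9 and 3.29 TPM in any library, both in NC replicate 2. Those of endothelium and astrocytes were highest in mESC replicate 1, at 45.4 and 141 TPM. Most of each sum there came from a single gene, Pecam1 at 34.8 TPM for endothelium and Gja1 at 124.5 TPM for astrocytes. Those of endoderm were highest in NPC replicate 1, at 179.9 TPM. Fewer cells of a type and less RNA per cell cannot be told apart in bulk samples.

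The 7 genes lie at 6 places in the genome, since Nefl and Nefm overlap. On mm10, Nefl (ENSMUSG00000022055.7) runs on the + strand of chromosome 14 from 68083863 to 68089095. Nefm (ENSMUSG00000022054.10) runs on the - strand from 68082590 to 68124846 of the same chromosome and so spans all of Nefl. GENCODE vM21, in which all 7 members have the same unversioned ID, start and end as in the deposited tables, gives Nefm 2 protein-coding transcripts. The last exon of the longer one, Nefm-202, shares 1108 bases with the first exon of Nefl (68083863 to 68084970), which is 32.8% of the exonic bases of Nefl, while the shorter Nefm-201 shares none. The sources used here do not say whether strand was used in the quantification, and without strand the reads of the shared stretch cannot be told apart. Ina (ENSMUSG00000034336.3, chromosome 19, 47014698 to 47025327) has a similar but smaller overlap of 456 exonic bases with Nt5c2 on the opposite strand, a gene at 20.8 to 47.8 TPM over the 6 libraries.

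**Figure D1:**
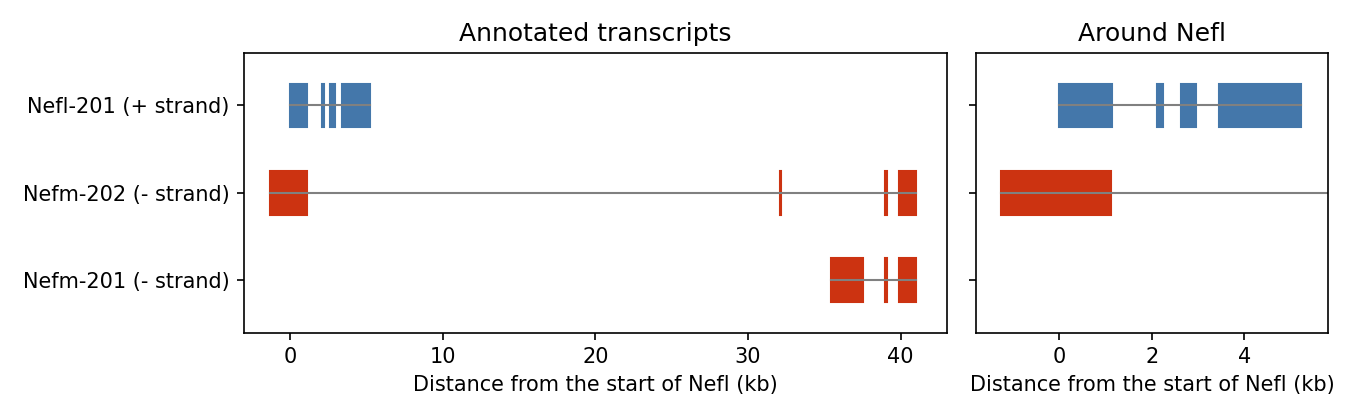
Annotated transcripts of Nefl and Nefm by distance in kb from the start of Nefl, the whole locus on the left and the surroundings of Nefl on the right. Boxes are exons and lines are introns, and the last exon of Nefm-202 covers 1108 bases of the first exon of Nefl.

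The other members stand apart from each other. Nefh (ENSMUSG00000020396.8) lies on chromosome 11 from 4938754 to 4948064, Prph (ENSMUSG00000023484.12) on chromosome 15 from 99055174 to 99058978, Nes (ENSMUSG00000004891.15) on chromosome 3 from 87971078 to 87980451 and Vim (ENSMUSG00000026728.8) on chromosome 2 from 13573927 to 13582826. The RefSeq promoter table (GRCm38.p6) held 4 of the 7 members. The 30 bases from 40 to 11 before each RefSeq start are shown because they cover the place of a TATA box, the element that positions the start of transcription in many strongly regulated genes. Capitals mark the letters TATAAA.
Vim: aacagtgtTATAAAagcagcgcccttggcg
Prph: ccgcagggcTATAAAgccgccccgcatcgg
Ina: caaccccgcgccttaaaagccccgcacacc
Nes: aataccctcgcttcagctcgctgctggaat
The windows lie on the + strand at chr2:13574271-13574300 for Vim, chr15:99055134-99055163 for Prph, chr19:47014641-47014670 for Ina and chr3:87971053-87971082 for Nes. TATAAA stood 32 bases before the start of Vim and 31 bases before that of Prph, and was not among the 250 bases before the start of Ina or Nes. Of 32851 promoters in the table, 12.4% held TATAAA on either strand within those 250 bases. On the gene strand about 30 bases before the start, it occurred in 160 of 16560 promoters of + strand genes. Of promoters of - strand genes, 153 of 16291 held it there. The GC box letters GGGCGG, searched on both strands, occurred in the promoters of Ina, Nes and Prph and in 32.7% of all promoters. CCAAT, the letters of the CCAAT box, occurred 2 times in the promoter of Vim, 1 time on each strand, and in 33.8% of all promoters on either strand. No matches of different motifs overlapped in these promoters. The RefSeq start of Vim lies inside the gene model of the tables, downstream of its outermost start.

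In NPC compared with mESC, Nefl, Nefm, Ina, Nes and Vim rose and Nefh and Prph fell. All 7 members passed the test, against 40.0% of the 20232 tested genes (26.0% higher and 14.0% lower in NPC; limma on log2(TPM + 1), adjusted p under 0.05 by Benjamini-Hochberg over all tested genes). The libraries of the stages did not overlap for any of the 7, as for 74.2% of tested genes. The median log2 fold change was 1.88 over the members and 0.18 over all tested genes. In NC compared with NPC, Nefl, Ina, Prph and Vim rose and 3 members did not pass, so that 4 of 7 were called against 25.3% of tested genes (15.2% higher and 10.1% lower in NC), with a median of 0.98 over the members against 0.11. In this comparison 6 of 7 had libraries that did not overlap, against 68.5% of tested genes. Over the whole course, NC compared with mESC, 5 members rose, Nefh fell and Prph did not pass, which is 6 of 7 against 59.9% of tested genes (37.8% higher and 22.1% lower in NC), with a median of 3.39 against 0.31. Libraries did not overlap for 6 of 7, against 78.7% of tested genes. The log2 fold changes in NC against mESC were 7.02 for Nefm, 4.79 for Nefl, 3.59 for Ina and 2.86 for Vim, with limma adjusted p between 1.16e-05 and 0.000123. These comparisons share libraries, so they are not independent of each other.

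**Figure D2:**
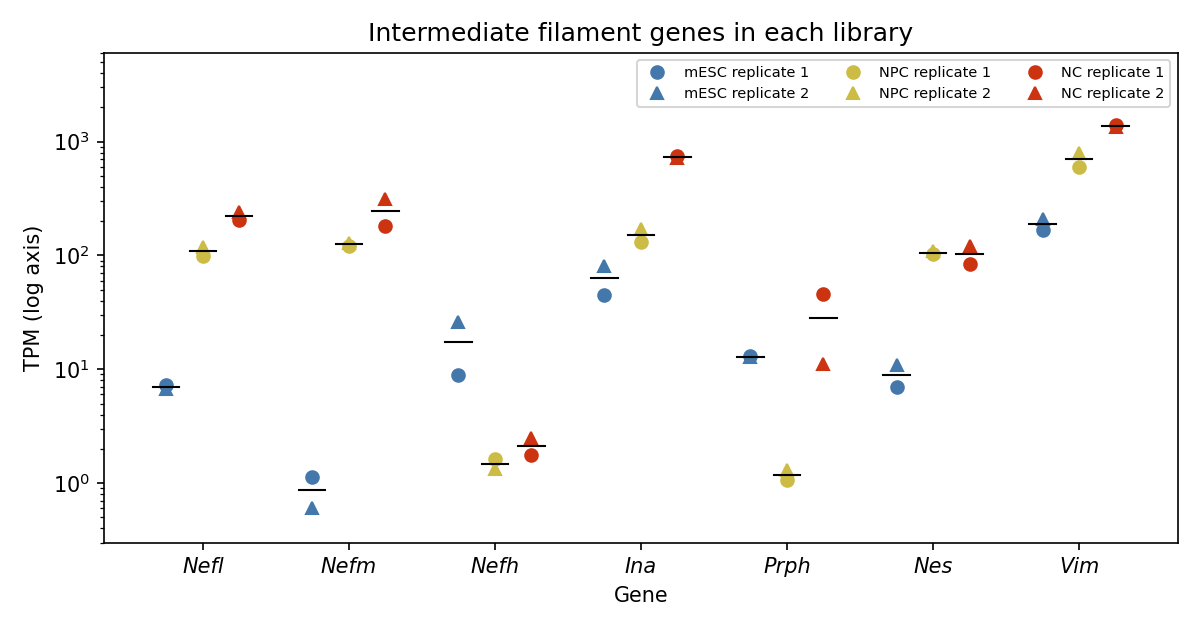
TPM of the 7 genes in each library on a log axis, by stage (colour) and replicate number (circle or triangle), with a black bar at the mean of 2 libraries. Nefl, Nefm, Ina and Vim are highest in NC, Nefh is highest in mESC, Nes overlaps between NPC and NC, and the NC libraries of Prph lie 4.08-fold apart.

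Nefl, the core subunit of the neurofilament, had 7.32 and 6.75 TPM in the mESC libraries, 99.4 and 118 TPM in NPC, and 205 and 239 TPM in NC. No libraries of different stages overlapped, and the libraries of a stage differed by at most 1.18-fold. The mean in NPC was 15.4 times that in mESC (108 ± 12.9 TPM in NPC and 7.03 ± 0.408 TPM in mESC, SD, n = 2 each; log2 fold change of 3.76 with SE 0.159, limma adjusted p = 3.25e-05). A further rise brought NC to 222 ± 24.05 TPM, 2.04 times the mean of NPC (log2 fold change of 1.03 with SE 0.159, limma adjusted p = 0.00752). Without NPC replicate 1 the second of these calls was lost (limma adjusted p = 0.0843).

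Nefm, the middle-sized subunit, was the lowest of the members in the stem cells, at 1.13 and 0.598 TPM. It stood at 122 and 129 TPM in the NPC libraries and at 183 and 312 TPM in NC. Its log2 fold change in NPC against mESC was 6.10 (SE 0.278, limma adjusted p = 3.89e-05), the largest of any member in that comparison. Both NC libraries lay above both NPC libraries, with means of 248 ± 91.3 TPM in NC and 125 ± 5.37 TPM in NPC, yet the change in NC against NPC missed the threshold (log2 fold change 0.93, 95% interval 0.26 to 1.59, limma adjusted p = 0.0532). Omitting NC replicate 1, the lower of the NC libraries, gave a log2 fold change of 1.31 that passed (limma adjusted p = 0.0265), whereas omitting NC replicate 2 gave 0.54 (limma adjusted p = 0.19). Without NPC replicate 1 or 2 the change did not pass either (limma adjusted p = 0.23 and 0.181). With all 6 libraries and a stricter filter of 5 TPM it passed (limma adjusted p = 0.0439). Nefm was the only neurofilament subunit whose NC libraries differed by more than 1.5-fold, at 1.71-fold. In mESC the ratio of Nefm to Nefl, with which it shares exonic bases, was 0.154 and 0.0887, against 1.22 and 1.10 in NPC and 0.894 and 1.31 in NC.

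Nefh, the heavy subunit of mature axons, ran the other way. It had 8.85 and 26.1 TPM in the mESC libraries, 1.62 and 1.33 TPM in NPC, and 1.75 and 2.51 TPM in NC. The stem cell libraries were the highest and also the farthest apart, by 2.95-fold. The mean in NPC was 11.8-fold lower than in mESC (1.48 ± 0.209 TPM in NPC and 17.5 ± 12.2 TPM in mESC; log2 fold change of -2.73 with SE 0.477, limma adjusted p = 0.00514), and that in NC was 8.20-fold lower than in mESC (log2 fold change of -2.39 with SE 0.477, limma adjusted p = 0.00531). Both calls held when either mESC library was left out, but their size depended on it. Without mESC replicate 1 the log2 fold change was -3.46 in NPC and -3.13 in NC, and without mESC replicate 2 it was -1.99 in NPC and -1.66 in NC, each against mESC. Between NC and NPC the log2 fold change was 0.33 with a 95% interval of -0.81 to 1.48 (limma adjusted p = 0.652), so these libraries set only a wide bound on any change. In NC, Nefl stood 117-fold and 95.2-fold above Nefh in replicates 1 and 2.

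Ina, which encodes alpha-internexin, was the most abundant neuronal filament gene in every library, with 44.4 and 81.2 TPM in mESC, 131 and 170.1 TPM in NPC, and 754 and 717 TPM in NC. The stages did not overlap, and NC stood far above the others. It rose 2.39-fold in NPC over mESC (150.3 ± 28.0 TPM in NPC and 62.8 ± 26.0 TPM in mESC; log2 fold change of 1.30 with SE 0.284, limma adjusted p = 0.0122). The step from progenitors brought a 4.89-fold higher mean in NC (735 ± 25.7 TPM; log2 fold change of 2.30 with SE 0.284, limma adjusted p = 0.00437). The first of these calls was lost without NPC replicate 2 (log2 fold change 1.11, limma adjusted p = 0.0844) and with no filter on low values (limma adjusted p = 0.0621). By rank among all 46517 listed genes Ina stood at 119 and 117 in the NC libraries, against 4621 and 2552 in mESC.

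Prph, which encodes peripherin, dipped in the progenitors. It had 13.1 and 12.8 TPM in mESC, 1.07 and 1.29 TPM in NPC, and 45.5 and 11.1 TPM in NC. The mESC libraries agreed closely, the NPC libraries were the lowest, and the NC libraries lay on either side of the stem cells. It was 10.9-fold lower in NPC than in mESC (log2 fold change of -2.67 with SE 0.576, limma adjusted p = 0.0113) and 23.95-fold higher in NC than in NPC (28.3 ± 24.3 TPM in NC and 1.18 ± 0.159 TPM in NPC; log2 fold change of 3.45 with SE 0.576, limma adjusted p = 0.00933). The fall in NPC missed the threshold when any single mESC or NPC library was left out and with no filter (limma adjusted p from 0.0511 to 0.0624), with log2 fold changes between -2.75 and -2.60. The rise in NC missed it without NPC replicate 1 (limma adjusted p = 0.0681), without NPC replicate 2 (0.0504) and with no filter (0.0541). It held with a log2 fold change of 2.48 without NC replicate 1 and of 4.41 without NC replicate 2. For NC against mESC the sign depended on the NC library, with a log2 fold change of 0.77 from all 6 libraries (limma adjusted p = 0.283), -0.20 without NC replicate 1 (0.539) and 1.74 without NC replicate 2, where it passed (0.00378).

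Because peripherin is known from peripheral neurons, markers of these cells were set beside it. The summed level of 9 markers of peripheral and autonomic neurons and of neural crest was 9.16 and 11.2 TPM in mESC, 66.3 and 64.7 TPM in NPC, and 116 and 117 TPM in NC. It was thus higher in NPC than in mESC, where Prph was lower, and level between the NC libraries, where Prph differed 4.08-fold. Of 8 tested markers 5 rose in NPC against mESC, and 4 rose and 1 fell in NC against NPC. Over all tested genes 26.0% rose in NPC against mESC, and 15.2% rose and 10.1% fell in NC against NPC. Pou4f1, a factor of sensory neurons that some central neurons also express, rose to 42.6 and 31.9 TPM in NC, against 4.47 and 8.10 TPM in NPC. Ret, a receptor for GDNF family ligands, fell to 14.3 and 11.7 TPM in NC, against 38.5 and 29.5 TPM in NPC. Th, the first enzyme of catecholamine synthesis, was listed at 0 in both mESC libraries, stood at 4.56 and 10.6 TPM in NPC and at 22.1 and 44.0 TPM in NC, and rose at both steps (limma adjusted p = 0.00286 and 0.0225). Dbh, which makes noradrenaline further along that pathway, was at 0 and 0.403 TPM in NC. Sox10, a factor of neural crest and glia, rose in NC against NPC and had 12.3 and 4.12 TPM in NC replicates 1 and 2, in the same order as Prph. The 6 motor neuron markers summed to 1.89 and 1.19 TPM in mESC, 18.3 and 10.7 TPM in NPC, and 14.0 and 14.3 TPM in NC. Of 5 tested, 2 rose in NPC against mESC, and 2 rose and 1 fell in NC against NPC. Lhx3, a LIM homeodomain factor of motor neurons and some interneurons, rose to 9.02 and 6.50 TPM in NC, against 3.43 and 1.96 TPM in NPC. Slc5a7, the choline transporter, stood at 1.58 and 3.85 TPM in NC and was listed at 0 in both NPC libraries. Mnx1, a defining factor of motor neurons, fell to 0.234 and 0.890 TPM in NC, against 11.1 and 6.96 TPM in NPC. The part of such cells in the Prph values was not tested.

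**Figure D3:**
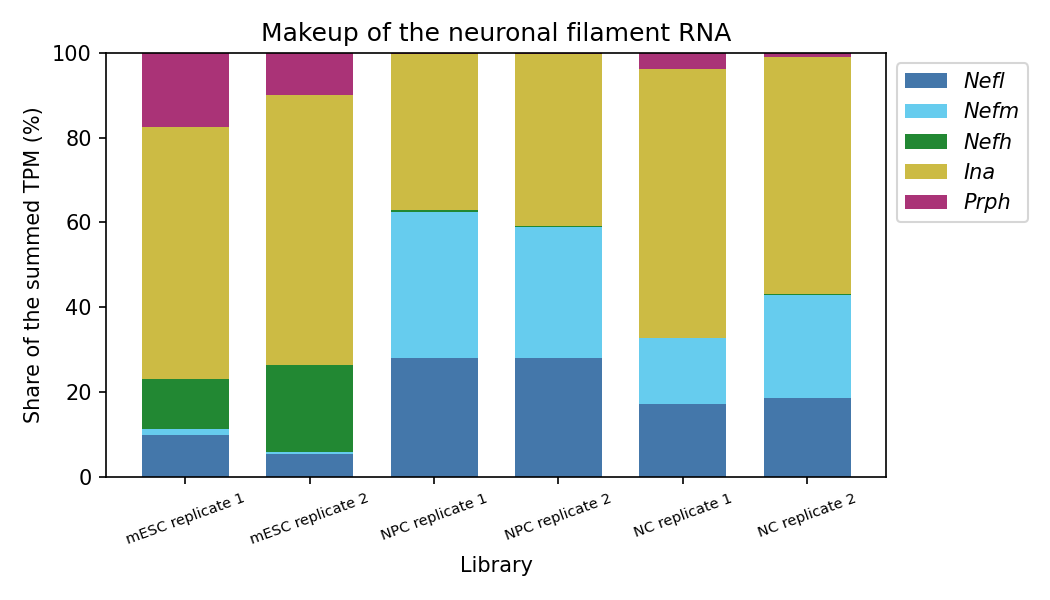
Share of each of the 5 neuronal filament genes in their summed TPM, per library, as stacked bars from 0 to 100%. Ina holds the largest share throughout, Nefh holds 11.8% and 20.5% in the mESC libraries and at most 0.458% elsewhere, and Nefl and Nefm hold their largest shares in NPC.

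The makeup of the neuronal filament RNA differed between stages, and its summed level was higher at each later stage. Summed over Nefl, Nefm, Nefh, Ina and Prph, the level was 74.8 and 127 TPM in mESC, 354 and 419.5 TPM in NPC, and 1189 and 1282 TPM in NC. Ina made up 59.4% and 63.7% of that sum in the mESC libraries, 36.8% and 40.5% in the NPC libraries, and 63.4% and 56.0% in the NC libraries. Nefl and Nefm took most of the rest in NPC, with 28.1% and 28.0% for Nefl and 34.3% and 30.8% for Nefm. In NC these shares were 17.2% and 18.6% for Nefl and 15.4% and 24.4% for Nefm. Nefh held 11.8% and 20.5% in mESC and at most 0.458% in each NPC and NC library. These shares are a description of 6 libraries and were given no test.

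Nes and Vim, the progenitor filament genes, parted in NC. Nes had 6.92 and 10.9 TPM in mESC, 102 and 109.6 TPM in NPC, and 84.2 and 119.8 TPM in NC. The NPC and NC libraries overlapped, and both stages lay above mESC. It rose in NPC over mESC (log2 fold change of 3.46 with SE 0.253, limma adjusted p = 0.000181) and was still higher in NC than in mESC (102 ± 25.1 TPM in NC and 8.91 ± 2.82 TPM in mESC; log2 fold change of 3.39 with SE 0.253, limma adjusted p = 0.000101). For NC against NPC the log2 fold change was -0.07 with a 95% interval of -0.68 to 0.53 (limma adjusted p = 0.864), and 0.18 without NC replicate 1.

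Vim was the most abundant member in every library, with 167 and 211 TPM in mESC, 604 and 797 TPM in NPC, and 1385 and 1354 TPM in NC. No stages overlapped, and in NC it ranked 45 and 38 among all listed genes. The mean was 3.71 times as high in NPC as in mESC (700.1 ± 137 TPM in NPC and 189 ± 31.2 TPM in mESC; log2 fold change of 1.88 with SE 0.189, limma adjusted p = 0.000583). In NC it averaged 1369.7 ± 22.3 TPM, 1.96 times the mean of NPC (log2 fold change of 0.98 with SE 0.189, limma adjusted p = 0.0139). That second call lay near the threshold, with an adjusted p of 0.0604 with no filter, 0.115 without NPC replicate 1, 0.0510 without NC replicate 1 and 0.0513 without NC replicate 2. Vim stood 24.1 and 19.3 times above Nes in the mESC libraries, 5.92 and 7.27 times in the NPC libraries, and 16.4 and 11.3 times in the NC libraries.

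Since vimentin is also a filament of mesenchymal cells, and nestin of radial glia, the markers of both were measured in the same libraries. The 10 fibroblast and mesenchyme markers summed to 200.1 and 117 TPM in mESC, 76.2 and 107 TPM in NPC, and 976 and 1307 TPM in NC. In NC against NPC 9 of 10 rose, led by S100a6, a calcium-binding protein (log2 fold change 5.35), and Col1a2, a chain of type I collagen (4.45). S100a6 stood at 49.5 and 29.9 TPM in mESC, 1.24 and 1.45 TPM in NPC, and 45.8 and 195 TPM in NC. It did not pass in NC against mESC (limma adjusted p = 0.12), where 8 of the 10 rose, as did 37.8% of all tested genes. Dcn, a defining matrix protein of fibroblasts, stood at 20.1 and 22.4 TPM in NC and at 0 and 0.504 TPM in NPC. For the earlier step, in which Vim also rose, 2 of the 10 rose and 3 fell. Over all tested genes 26.0% rose and 14.0% fell at that step, and 15.2% rose and 10.1% fell in NC against NPC. The 8 radial glia and progenitor markers summed to 335 and 331 TPM in mESC, 979.6 and 879 TPM in NPC, and 1365 and 455 TPM in NC. Between the NC libraries their sum was higher in replicate 1, and so was Fabp7, which encodes a lipid carrier of radial glia, at 792 and 164 TPM, whereas Nes was higher in replicate 2. Of the 8, Fabp7 rose in NC against NPC and Pax6 and Prom1 fell. The part of mesenchymal cells and of radial glia in the Vim and Nes values was not tested.

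**Figure D4:**
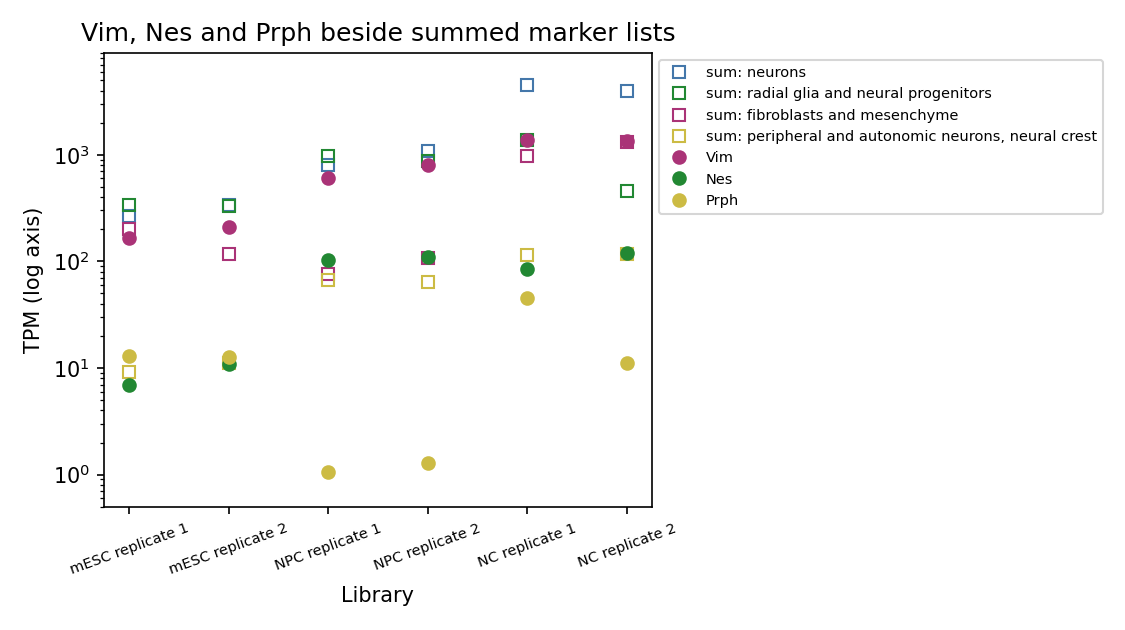
TPM of Vim, Nes and Prph (filled circles) and summed TPM of 4 marker lists (open squares) in each library, on a log axis. The fibroblast and mesenchyme sum lies between 76.2 and 200.1 TPM in the mESC and NPC libraries and at 976 and 1307 TPM in NC, and Vim rises at both steps.

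**Figure D5:**
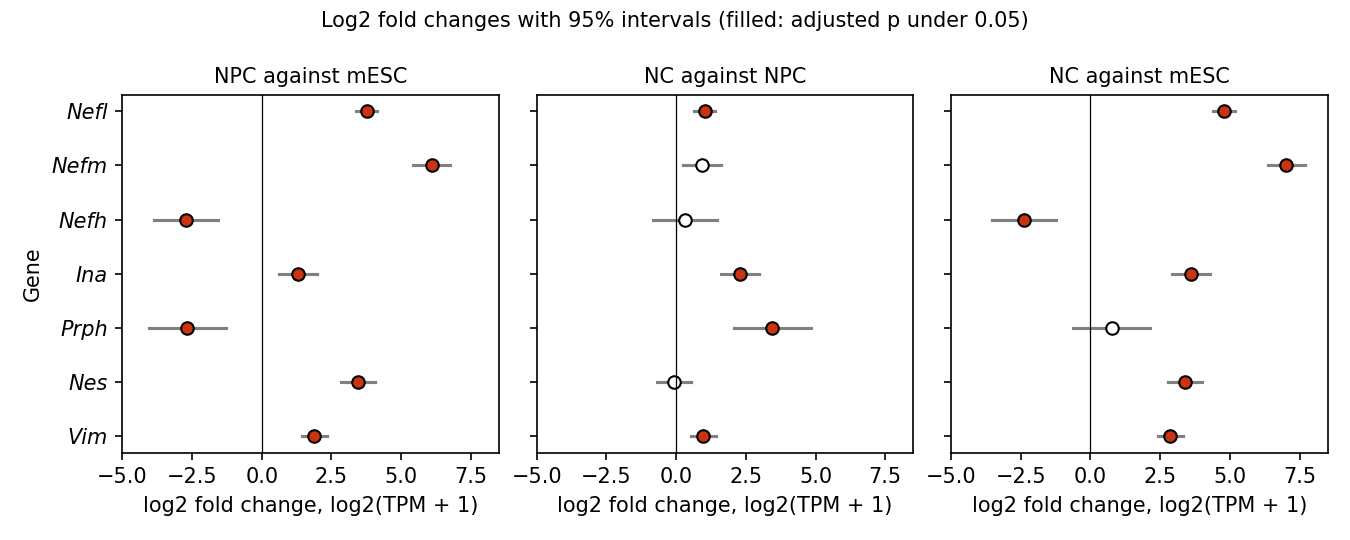
Log2 fold changes of the 7 genes on the log2(TPM + 1) scale with 95% intervals from limma, in 3 comparisons, with filled points for an adjusted p under 0.05. Nefm has the largest positive change in NPC against mESC (6.10), Nefh and Prph lie below 0 there, and open points mark Nefm, Nefh and Nes in NC against NPC and Prph in NC against mESC.

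Of 15 other intermediate filament genes listed, 10 passed the filter, with median log2 fold changes of 0.24 in NPC against mESC, -0.32 in NC against NPC and 0.16 in NC against mESC. Des, the muscle filament desmin, and Lmna, the A-type nuclear lamin, fell in NPC against mESC (log2 fold changes -2.48 and -1.90), and the other 8 did not pass. Over all tested genes 26.0% rose and 14.0% fell in that comparison. In NC against NPC Lmna and Synm, a partner protein of vimentin and desmin filaments, rose (2.55 and 1.54), and Krt19, Lmnb1 and Lmnb2 fell, with log2 fold changes of -2.06 for the epithelial keratin Krt19 and -0.69 for the B-type lamin Lmnb1. NC against mESC showed a rise of Synm (2.08) and a fall of Des, Lmnb2 and Lmnb1, led by Des (-1.62) and Lmnb2 (-0.91). Gfap, the astrocyte filament that partners vimentin, did not pass the filter, at 9.72 and 0.598 TPM in the NC libraries and at most 0.528 TPM elsewhere. Of the astrocyte markers, Aldh1l1, a folate enzyme, stood at 16.5 and 5.96 TPM in mESC, 0.368 and 0.237 TPM in NPC, and 59.3 and 1.89 TPM in NC. The gap junction gene Gja1 stood at 50.8 and 59.2 TPM in NC, and Aqp4 and S100b were at or below 0.613 TPM there.

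Genes of proteins that link, carry, phosphorylate or degrade intermediate filaments made up a further list. Of its 21 tested genes 9 rose and 2 fell in NPC against mESC, 9 rose and 1 fell in NC against NPC, and 11 rose and 2 fell in NC against mESC. Over all tested genes 26.0% rose and 14.0% fell in NPC against mESC. The shares were 15.2% and 10.1% in NC against NPC, and 37.8% and 22.1% in NC against mESC. The median log2 fold changes of the list were 0.21, 0.74 and 0.68 in the order of these comparisons, against 0.18, 0.11 and 0.31 over all tested genes. Kif5c and Kif5a encode neuronal heavy chains of the kinesin that moves neurofilament subunits along axons. Kif5c had 10.4 and 8.41 TPM in mESC, 100.5 and 114 TPM in NPC, and 283 and 286 TPM in NC (log2 fold change 3.39 in NPC against mESC, limma adjusted p = 3.79e-05, and 4.79 in NC against mESC). Kif5a rose in NC against NPC (135 and 151 TPM in NC and 28.8 and 37.6 TPM in NPC, log2 fold change 2.09, limma adjusted p = 0.00806). The ubiquitous Kif5b stayed between 80.2 and 92.3 TPM in all 6 libraries.

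Among the kinases of this list and their activators, the largest rise in each comparison was that of an activator of CDK5. This kinase phosphorylates the tails of NEFM and NEFH. Cdk5r2 had it in NPC against mESC (log2 fold change 3.42, limma adjusted p = 0.000414), and Cdk5r1 in NC against NPC (3.01, limma adjusted p = 0.00357) and in NC against mESC (5.73, limma adjusted p = 4.22e-05). In NC against NPC Cdk5r2 did not pass (0.33, limma adjusted p = 0.488). Cdk5r1 stood at 1.08 and 0.892 TPM in mESC, 8.46 and 17.1 TPM in NPC, and 118 and 92.0 TPM in NC. Dst, a plakin that links filaments to other cytoskeleton, and Mapk3 fell in NPC against mESC (-1.70 and -0.52), although the tables list Dst under 2 gene IDs, which can split its reads. Dst rose in NC against NPC (2.03, limma adjusted p = 0.00721), with 164 and 85.6 TPM in mESC, 31.0 and 41.2 TPM in NPC, and 139 and 159 TPM in NC. Aurkb, a mitotic kinase that phosphorylates vimentin, fell in NC against NPC (-1.61) and in NC against mESC (-1.40), where Mapk3 fell as well (-0.40).

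The genes whose course over the 6 libraries was most like that of a member were found by the Euclidean distance of log2(TPM + 1) after centring each gene on its mean. Nefl was nearest to Gadd45g, a stress and differentiation gene, at a distance of 0.26, then to Tox3 (0.27) and Tcaf1 (0.31). Nefm had Lhx1, a LIM homeodomain factor, at 0.75, Nell2 at 0.83 and Hoxa6 at 1.01. Nefh was nearest to Hoxa11os (0.60), Mup6 (0.68) and Vwa3b (0.68), all of which were above 3 TPM in the mESC libraries and listed at 0 in NC. The values of Mup6, of a family of near-identical copies, and of the antisense gene Hoxa11os are uncertain, since reads may be shared with other genes. Ina had Tub (0.44), Dusp15 (0.44) and Fam84a (0.45). The nearest gene to Prph, Adap1, was already at a distance of 1.10, followed by Ptprv (1.30) and Mt3 (1.34). Nes had Zswim5 (0.37), Irf2 (0.45) and Wls (0.51), and Vim had the microtubule affinity kinase Mark1 (0.18), Tmcc2 (0.20) and Irgq (0.22). With 3 stages many genes can share a course, and the distances are given as a description. Among the members themselves the closest pairs were Ina with Vim (1.37) and Nefl with Nes (1.57), and Nefl with Nefm, whose models overlap, lay 2.68 apart.

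Several gene models lie within 50 kb of a member. Besides the members themselves they include Crabp2, a retinoic acid binding protein gene 17701 bases before Nes on the same strand. It had 5.29 and 4.92 TPM in mESC, 779.9 and 661 TPM in NPC, and 274 and 201.7 TPM in NC, so that it was lower in NC than in NPC, where the Nes libraries overlapped. The other neighbours of Nes were Gm3745, Bcan, Isg20l2, Rrnad1, Hapln2 and Mrpl24. Bcan, which encodes the brain matrix protein brevican and lies 7079 bases from Nes, ran between 1.82 and 8.22 TPM. Trdmt1, the single neighbour of Vim, stayed between 3.88 and 4.97 TPM while Vim rose at both steps. Beside Nefh lie Thoc5, AA413626, Ap1b1, Nipsnap1 and Mir6918, of which the nearest, Thoc5, stayed between 60.3 and 104 TPM. Beside Ina lie Pcgf6, Gm23140 and Taf5, with the nearest, the Polycomb gene Pcgf6, at 55.0 and 61.8 TPM in mESC, 44.0 and 38.7 TPM in NPC, and 35.6 and 39.7 TPM in NC. Beside Prph lie Troap, Tuba1c, Mir6960, C1ql4, Dnajc22 and Gm8973, of which C1ql4, a secreted synaptic protein gene, had 19.1 and 10.4 TPM in NC and at most 2.58 TPM elsewhere. Gm22319, near Nefm, was at or below 0.0592 TPM.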

How the data were processed

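The 6 tables are StringTie gene abundance output, 1 per library, per the file headers. The submitters' processing notes list the build mm10 and, with no order or settings, the tools StringTie 2.1.5, STAR 2.7.9a, cutadapt 3.4, DESeq2, R 4.0.3 and FastQC. Per the file headers the deposited columns are coverage (mean depth per exonic base), FPKM (an abundance per length) and TPM, which has 1 fixed total per library. The sources used here give neither the annotation release nor the strand setting.

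From these, repeated lines of a gene ID (2 to 9 per table) were summed. Genes with at least 1 TPM in at least 2 of 6 libraries were tested with limma 3.58.1 in R 4.3.3 (lmFit, eBayes with a trend) on log2(TPM + 1), with 1 coefficient per stage and no replicate block, two-sided, with Benjamini-Hochberg adjustment over all tested genes and a threshold of 0.05. Fold changes on that scale understate changes of low genes. Ratios quoted as times or fold are of mean TPM. The fit was tested on simulated data. With 2 libraries against 2 an exact permutation test cannot go below p = 0.333. Precision is given by the 2 libraries of a stage, since depth in reads is unknown. Depth in Gb is the most frequent ratio of coverage to FPKM, met within 0.1% by 38.3% to 39.7% of genes at 1 FPKM or more.

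The 7 members, the 14 lists of 112 genes and the naming rule were chosen with earlier results of these data known. One list, of pyramidal neuron genes, was added after the values were seen. The rule names all members, the 3 genes nearest in pattern to each, and per list and comparison the 2 called genes with the largest change in each direction. It also names gene models within 50 kb. Of cell type marker lists only genes beside a member's result or in the description of the stages are named. These, Kif5b and the neighbours given with values were picked with their values seen. Eppk1 of the lists was not analysed here. Some single markers of the lists are not reported here. Alternatives were another pseudocount, 2 filters, FPKM, 2 scalings, fits of single comparisons, no trend, a replicate block and leaving out each library.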

Additional observations from a re-analysis of the deposited data

How the results depend on the processing

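Of 315 alternative values of the 21 log2 fold changes of members, 295 kept their direction and their side of the threshold, 15 lost a call, 3 gained one and 2 changed sign. With no filter on low values, the calls lost were those of Ina (log2 fold change 1.30) and Prph (-2.67) in NPC against mESC, and of Prph (3.45) and Vim (0.98) in NC against NPC, where 2 members and 3166 genes were then called, against 4 and 5123. With a filter of 5 TPM, Nefm in NC against NPC gained a call (0.93). Leaving out single libraries gave between 4138 and 8680 called genes in NPC against mESC, between 805 and 5264 in NC against NPC and between 9290 and 10873 in NC against mESC, with between 1 and 4 members called in NC against NPC. The lowest count, 805 genes and 1 member, came without NPC replicate 1, and 1454 and 3170 genes were called without NPC replicate 2 and without NC replicate 2. These fits assume that the lone library varies like those of the other stages. In them the log2 fold change in NPC against mESC ranged from 0.87 to 1.72 for Ina, from -2.75 to -2.60 for Prph and from -3.46 to -1.99 for Nefh, and in NC against mESC from -0.20 to 1.74 for Prph and from -3.13 to -1.66 for Nefh. In NC against NPC it ranged from 0.91 to 1.15 for Nefl, 0.54 to 1.31 for Nefm, 2.48 to 4.41 for Prph, -0.32 to 0.18 for Nes and 0.78 to 1.18 for Vim. The cause of these shifts was not tested, and the smaller number of libraries cannot be told apart from the particular library left out. Median-of-ratios scaling moved the median of all tested genes from 0.18 to -0.01 in NPC against mESC and from 0.31 to 0.05 in NC against mESC, and lowered the share of called genes that rose from 65.0% to 52.8% and from 63.2% to 52.4%. In NC against NPC that share was 60.1% as deposited. Quantile normalization gave 51.2% in NPC against mESC, 47.7% in NC against NPC and 47.2% in NC against mESC, and FPKM 47.0% in NC against NPC and 53.0% in NC against mESC. No member changed its call under these. Replicate differences of the stages correlated at 0.05, -0.08 and -0.07 over 20232 genes. The labels do not say whether replicate numbers mark a shared culture or day, and these correlations cannot decide it. With the replicate block 7368, 4247 and 11575 genes and 7, 4 and 6 members were called, and no call of a member changed. Levels near 1 TPM, as of Nefh and Prph in NPC, limit what 2 libraries without counts can show.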
